A study of Mus musculus with 6 samples.

Results

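The 57 genes described here encode enzymes, and subunits of their complexes, that add or remove chemical marks on histones and DNA. They were listed by gene name, with earlier results of these data known. All 57 were found among the 45193 Ensembl genes of the deposited count table. By class they were 16 histone deacetylases and sirtuins, 18 histone methyltransferase genes, 12 histone demethylases, 7 lysine acetyltransferases and 4 genes of DNA methylation and its removal. All 57 passed the filter on low counts that left 12011 tested genes.

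RNA was sequenced from mouse macrophages grown from bone marrow, in 3 libraries of each of 2 genotypes on the C57BL/6J background. The first genotype was wild type (WT). The other, RXRKO, carried the alleles that the labels write as RXRafl/flLysMCre RXRb-/-, so that Rxra was to be deleted by a Cre recombinase made from the lysozyme M gene in myeloid cells, while both Rxrb alleles were inactivated. Rxra and Rxrb encode retinoid X receptors, nuclear receptors that bind DNA as partners of many others. Marrow cells of both genotypes were cultured for 6 days in medium that L929 fibroblasts had enriched in the growth factor CSF-1. They were moved to serum-free medium and received only the solvent DMSO for 3 hours, so neither genotype was given a receptor ligand. The labels call the replicates biological without tying them to animals. The p-values therefore measure the spread between these libraries.

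Library totals ran from 7880320 to 14957253 counts in WT and from 17250051 to 25091019 in RXRKO, without overlap (2-sided p = 0.1 by exact permutation, the minimum for groups of 3). Level is given as CPM, which are counts brought to the same effective library size with TMM factors. Rxrb stood at 64.7, 66.9 and 68.4 CPM in WT and at 8.14, 7.98 and 11.7 CPM in RXRKO. Rxra stood at 97.0 to 110 and 104 to 113 CPM, a count over the whole gene that does not check its floxed part. Lyz2, the gene that carries the Cre, fell from 14747 to 15909 CPM in WT to 23.1 to 35.1 CPM in RXRKO. The 10 macrophage markers examined summed to 7724 to 8746 CPM in WT and 8582 to 9839 CPM in RXRKO. Neutrophil markers, 12 in number, summed to 1099 to 1245 CPM and 1004 to 1114 CPM, and 4 of them fell and 1 rose. Among those that fell were genes of granule proteins, Elane (log2 fold change -1.10), Mpo (-0.88) and Prtn3 (-0.83), and Elane was at 35.9, 27.7 and 25.9 CPM in WT and at 15.6, 14.3 and 11.8 CPM in RXRKO. The 6 osteoclast markers summed to 271 to 328 CPM in WT and 204 to 244 CPM in RXRKO, without overlap, and of the 5 tested 2 rose and 2 fell. Of the 3 tested fibroblast markers Col3a1 fell (-1.91, at most 3.42 CPM in any library). The part of these marker changes in the results below was not tested. Those of B cells, of T and NK cells and of dendritic cells each summed to at most 15.5 CPM in any library. Xist, the RNA of the inactive X chromosome of female cells, had no count in the 3 WT libraries and 209, 267 and 236 CPM in the RXRKO libraries, and the labels give no sex. The Y-linked gene Ddx3y was at 108, 112 and 101 CPM in WT and at 49.9, 49.7 and 55.4 CPM in RXRKO. All 3 RXRKO libraries thus held both Xist and Y-linked RNA, and the labels do not say whether cells of several animals were pooled. If the libraries of a genotype shared a pool, their spread would not measure that between animals. WT replicate 3 stood apart from the other WT libraries in how its counts depended on transcript length, as described below.

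Histone acetyltransferases add acetyl groups to lysines of the histone tails, which generally goes with open chromatin, and deacetylases remove them. Methyltransferases and demethylases act on particular lysines. Methylation of lysine 4 of histone H3 (H3K4) is typical of active promoters and enhancers, that of H3K36 of transcribed gene bodies, and that of H3K9 and H3K27 of silenced regions. DNA methyltransferases place methyl groups on cytosines of CG dinucleotides, and TET enzymes oxidise them as a step of their removal. In macrophages such enzymes are known to shape inflammatory gene programmes, and nuclear receptors recruit several of them: without ligand, many bind corepressors that carry HDAC3.

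All 57 genes were transcribed in these macrophages, at very different levels, as the plot of levels by class shows. To compare genes with one another, CPM was divided by the length of the merged exons in kb. Ehmt2, which encodes the H3K9 methyltransferase G9a, was the most abundant at 37.9 ± 4.82 CPM per kb in WT (SD, n = 3) and 43.6 ± 5.24 in RXRKO. Dnmt1, which copies DNA methylation onto newly made strands, followed at 31.5 ± 1.48 and 32.1 ± 2.56 CPM per kb, and the WT libraries of these neighbours in the order overlapped. Sirt2, a mainly cytoplasmic deacetylase, came next at 26.4 ± 1.53 CPM per kb in WT, and Hdac5 at 20.6 ± 1.57. This order holds for merged exons, which can be longer than any 1 transcript. Sirt2 has 5035 bases of merged exons and a longest transcript of 2117 bases, and Ehmt2 has 5489 and 4026. With another measure of length the order and the class leaders can differ. The leading genes of the remaining classes were less abundant. Kdm4a, a demethylase of H3K9 and H3K36, stood at 13.4 ± 1.25 CPM per kb in WT, and Kat7, the acetyltransferase HBO1, at 12.1 ± 1.22. At the other end were Hdac11 at 0.356 ± 0.193, Hdac9 at 0.572 ± 0.0508, Kdm6b at 0.611 ± 0.165 and Kat6b at 0.622 ± 0.0643 CPM per kb in WT, where each overlapped the next within 1 SD. None of the 5 class leaders passed the test between genotypes. Ehmt2 was at 179, 230 and 216 CPM in WT and 229, 218 and 272 CPM in RXRKO (log2 fold change 0.20). Sirt2 was at 135, 124 and 139 against 148, 143 and 118 CPM (log2 fold change 0.04). Kdm4a was at 71.6, 85.6 and 75.3 against 91.5, 86.7 and 96.0 CPM (log2 fold change 0.24, adjusted p = 0.0858). In Ehmt2 and Sirt2 the genotypes overlapped, whereas every RXRKO library had more Kdm4a than every WT library. Kat7 was at 66.9, 60.5 and 74.1 against 65.4, 71.0 and 48.5 CPM (log2 fold change -0.13), with the genotypes overlapping.

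**Figure D1:**
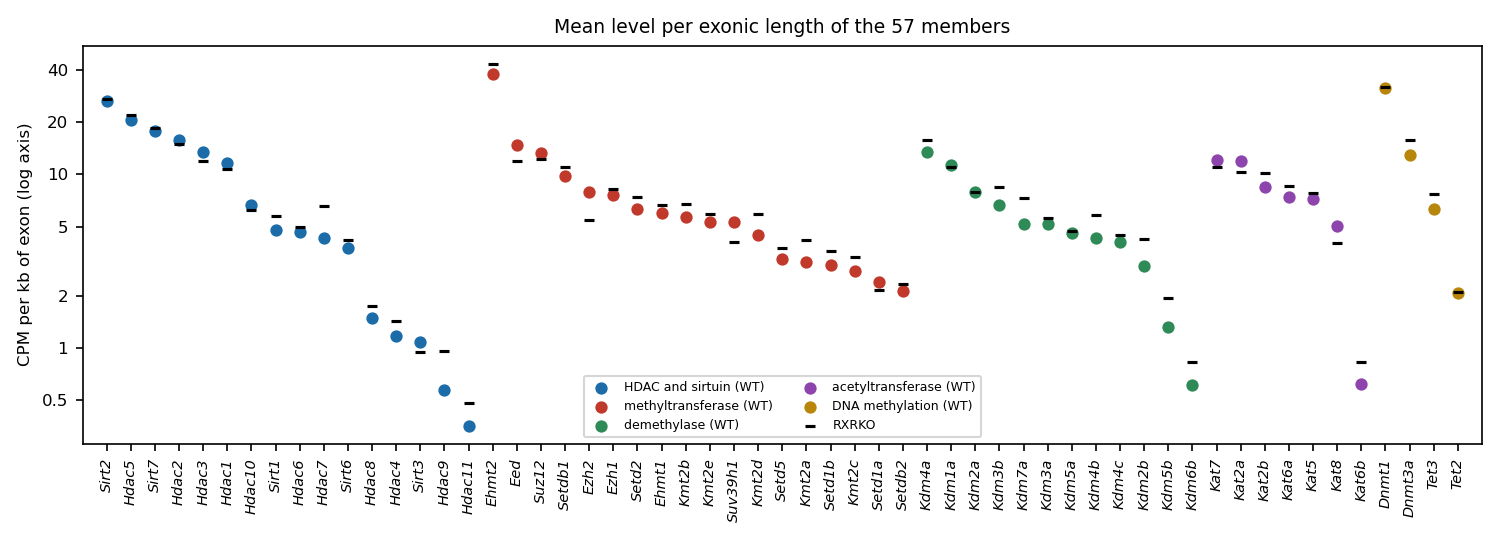
Mean level of each of the 57 genes in CPM per kb of exon (log axis), ordered by WT level within each class. Coloured points are means of 3 WT libraries and black bars means of 3 RXRKO libraries. Ehmt2 is highest at 37.9 in WT and Hdac11 lowest at 0.356.

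Between the genotypes, 9 of the 57 genes rose in RXRKO, 1 fell and 47 did not pass the test (edgeR quasi-likelihood F test, Benjamini-Hochberg adjustment over 12011 genes, threshold 0.05). The 9 were the deacetylase genes Hdac7 and Hdac9, the methyltransferase gene Kmt2a, the demethylase genes Kdm5b, Kdm2b, Kdm3b, Kdm4b and Kdm7a, and the DNA methyltransferase gene Dnmt3a. The gene that fell was Ezh2, which encodes the catalytic subunit of Polycomb repressive complex 2. As shares, 15.8% of the 57 rose, beside 9.77% of all tested genes, and 1.75% fell, beside 9.61% of all tested genes (19.4% in either direction). The changes were moderate: the 10 passing genes lay between a log2 fold change of -0.52 and 0.77. Over the 57 the median log2 fold change was 0.14, beside -0.005 over all tested genes, and 41 of the 57 had a positive sign, beside 5911 of the 12003 tested genes with a known length. The 3 RXRKO libraries were all above the 3 WT libraries in 18 of the 57, where 19% of all tested genes did the same, and all below in 5, where 17.9% did (36.9% in either direction).

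These counts moved with the libraries entered and with transcript length. Without WT replicate 1 only 4 of the 57 rose (median log2 fold change 0.11), and without WT replicate 3 the number was 16 (median 0.21). The share of all tested genes that rose moved too, to 5.4% (667 of 12348) and 10.4% (1278 of 12344), and the number that passed in either direction was 1286 and 2607 in place of 2327. Genes with long transcripts were higher in RXRKO across the whole table, and 24 of the 57 were in the longest of 5 equal bins of tested genes. A second fit therefore removed each library's smooth trend on exonic length (the length offset). In that fit 6 of the 57 rose (Hdac7, Hdac9, Kdm5b, Kdm2b, Kdm4b and Kdm7a), beside 8.32% of all tested genes, and Ezh2 alone fell, beside 9.05% (17.4% in either direction). The median of the 57 became 0.04. With 1 library left out of that fit, the number that rose was between 2 (without WT replicate 1) and 5, and it was 3 without RXRKO replicate 2. The number that fell was 2 without WT replicate 2, WT replicate 3 or RXRKO replicate 2 in either fit. Kmt2a, Kdm3b and Dnmt3a no longer passed. When GC content was added to the offset, the same genes passed, the background was 8.43% higher and 9.21% lower (17.6% together), and the median was 0.01.

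**Figure D2:**
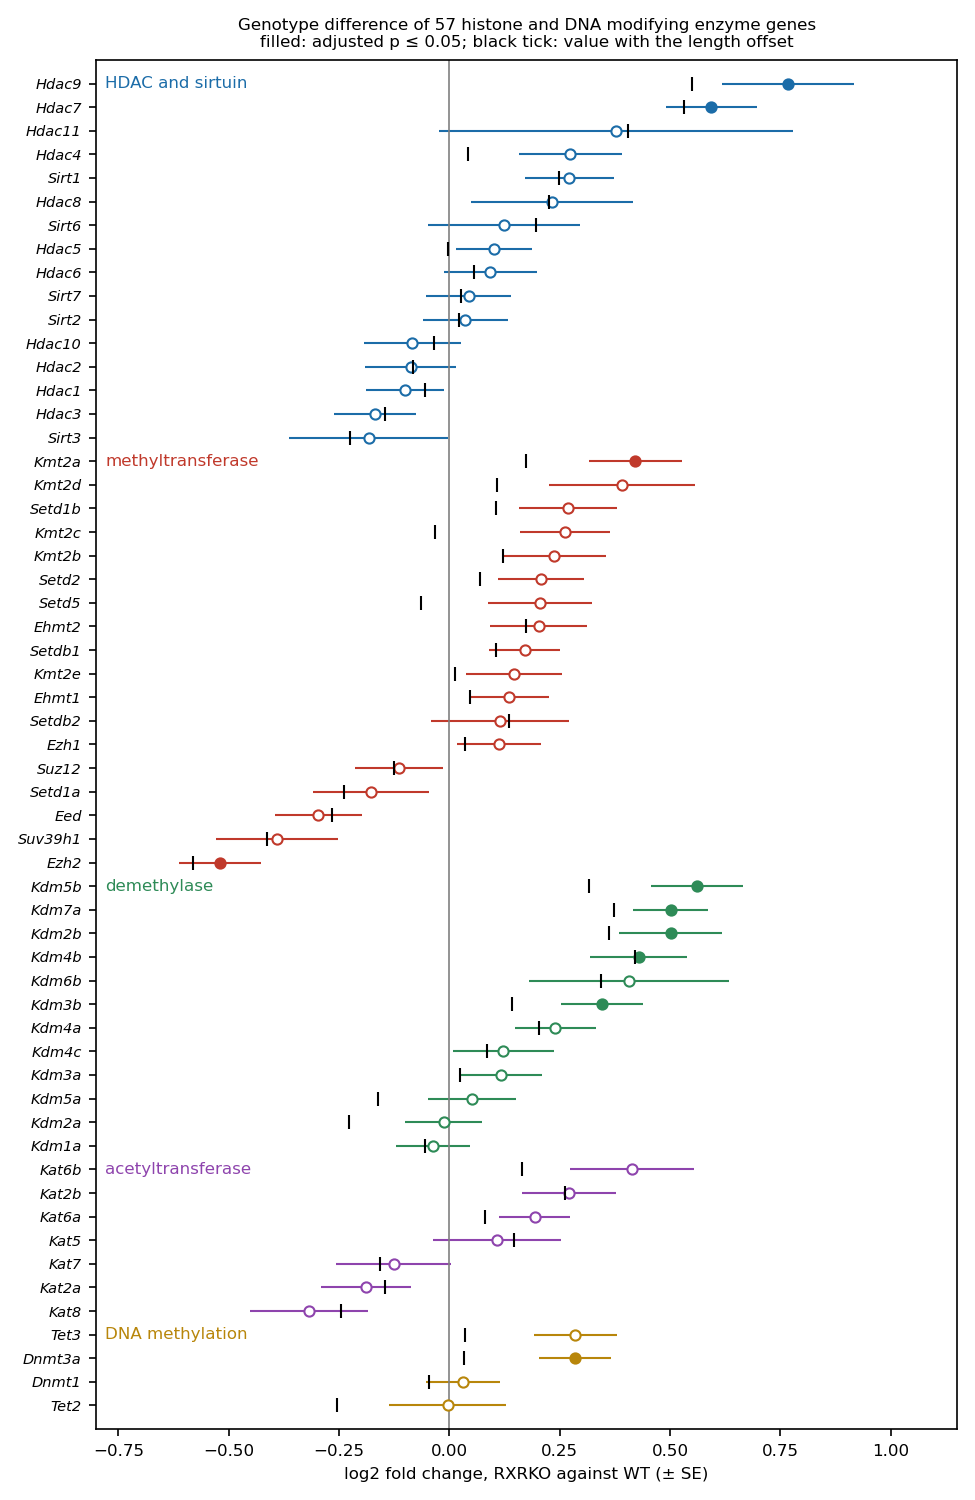
Log2 fold change of RXRKO against WT for each gene, grouped by class (points, with bars of 1 SE from the F test). Filled points passed the test, and black ticks give the value with the length offset. The filled points run from -0.52 for Ezh2 to 0.77 for Hdac9, and the ticks of Kmt2a, Kdm3b and Dnmt3a lie closer to 0 than their points.

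The deacetylase genes that passed were both of class IIa, whose members are enzymes of weak catalytic activity that repress targets of MEF2 transcription factors and carry corepressors. Hdac7 (chr15:97792664-97844502, GRCm38) and Hdac9 (chr12:34047580-34917095) rose, while Hdac4 and Hdac5 did not pass. Hdac7 was at 25.9, 29.1 and 32.4 CPM in WT and at 44.7, 44.5 and 43.3 CPM in RXRKO. It was thus 1.51-fold higher, with no overlap of the genotypes and RXRKO libraries that lay close together (log2 fold change 0.59, SE 0.103, adjusted p = 0.00146). Hdac9, a gene of low level, was at 8.40, 9.13 and 7.64 CPM in WT and at 12.7, 16.3 and 13.3 CPM in RXRKO. It rose 1.70-fold (log2 fold change 0.77, SE 0.149, adjusted p = 0.00305), again with every RXRKO library above every WT library. With the length offset, described above, the log2 fold changes were 0.53 for Hdac7 and 0.55 for Hdac9, the first nearly as without it and the second smaller, and both passed. With GC content added to the offset they were 0.43 for Hdac7 and 0.56 for Hdac9, and both passed. Hdac4 was higher in all RXRKO libraries (log2 fold change 0.27, adjusted p = 0.121), but 0.04 with the length offset, and 22.4% of its exonic bases overlap Gm26720 on the other strand. Hdac5, the most abundant of the group, had a log2 fold change of 0.10.

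The promoters of these genes, and of Kdm7a described further on, are shown because they hold the fewest and the most CG dinucleotides among the genes that passed and matched a RefSeq window. Each line gives the 250 bases before the RefSeq start (GRCm38.p6, minus strand, 5′ to 3′), with CG dinucleotides in capitals. The window of Hdac7 (chr15:97844503-97844752) holds 6 of them, that of Hdac9 (chr12:34917096-34917345) holds 0, and that of Kdm7a (chr6:39206774-39207023) holds 56. The GC content of the windows is 56.4%, 44.4% and 82%. Those of Kdm5b (13 CG, 54.4% GC), Ezh2 (23 CG, 63.6% GC), Kdm2b (27 CG, 68% GC), Kmt2a (29 CG, 76.8% GC) and Dnmt3a (38 CG, 82.4% GC) lie between these in CG number.
Hdac7: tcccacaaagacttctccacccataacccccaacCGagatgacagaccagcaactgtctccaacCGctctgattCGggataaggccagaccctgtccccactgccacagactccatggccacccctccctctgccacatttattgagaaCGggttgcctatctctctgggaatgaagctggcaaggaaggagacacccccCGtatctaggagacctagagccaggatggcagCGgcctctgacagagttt
Hdac9: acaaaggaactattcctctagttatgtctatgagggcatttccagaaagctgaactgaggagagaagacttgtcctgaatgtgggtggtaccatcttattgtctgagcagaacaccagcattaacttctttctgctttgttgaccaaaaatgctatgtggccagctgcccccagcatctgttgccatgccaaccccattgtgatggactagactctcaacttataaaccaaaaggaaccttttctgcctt
Kdm7a: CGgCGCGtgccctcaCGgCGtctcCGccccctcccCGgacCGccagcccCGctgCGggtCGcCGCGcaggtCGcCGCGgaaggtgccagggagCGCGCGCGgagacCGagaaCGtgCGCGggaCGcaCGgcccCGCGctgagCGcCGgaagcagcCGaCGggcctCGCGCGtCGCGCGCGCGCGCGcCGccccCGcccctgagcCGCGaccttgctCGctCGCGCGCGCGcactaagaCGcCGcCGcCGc
The window of Kdm7a has the highest CG count found at any tested gene with such an entry. Promoters rich in CG dinucleotides are typically unmethylated and broadly active, and those poor in them are more often tissue-restricted. Counts over whole genes do not show which start was used in these macrophages.

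None of the 4 class I deacetylase genes passed. These encode the catalytic subunits of the large corepressor complexes, HDAC1 and HDAC2 in NuRD, CoREST and SIN3, and HDAC3 with the nuclear receptor corepressors NCoR and SMRT. Hdac1 was at 40.8, 40.04 and 38.7 CPM in WT and 37.1, 36.6 and 37.7 CPM in RXRKO, and Hdac3 at 53.8, 54.1 and 54.8 against 46.9, 44.8 and 53.2 CPM. Both were lower in every RXRKO library, by log2 values of -0.10 and -0.17, without passing (adjusted p = 0.467 and 0.236). Hdac2 had a log2 fold change of -0.09 and the X-linked Hdac8 one of 0.23, both with overlapping genotypes. Of the remaining deacetylases, Hdac6, a tubulin deacetylase also on the X chromosome, had a log2 fold change of 0.09, Hdac10 one of -0.08 and Hdac11 one of 0.38 with an SE of 0.401. Hdac11 had only 5 to 38 counts in a library.

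Sirtuins, deacetylases that consume NAD, gave no gene that passed among 5. Sirt1, a nuclear deacetylase of histones and transcription factors, came nearest. Its levels were 25.5, 27.4 and 23.8 CPM in WT and 30.7, 31.3 and 30.2 CPM in RXRKO, with no overlap (log2 fold change 0.27, adjusted p = 0.0781). Sirt6, which acts at telomeres and on H3K9 acetylation, and the nucleolar Sirt7 had log2 fold changes of 0.12 and 0.04. The mitochondrial Sirt3 had one of -0.18, with 7% of its exonic bases shared with Ric8a on the other strand. In each of these 3 the genotypes overlapped.

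Of the 7 genes in the H3K4 methyltransferase family, Kmt2a rose and the other 6 did not pass, although 6 of the 7 had a positive sign. Kmt2a (chr9:44803355-44881296) encodes MLL1, which methylates H3K4 at promoters such as those of Hox genes. It was at 46.8, 49.7 and 59.8 CPM in WT and at 64.5, 72.4 and 73.1 CPM in RXRKO, without overlap, and rose 1.34-fold (log2 fold change 0.42, SE 0.105, adjusted p = 0.0141). The call was lost with the length offset (0.17, adjusted p = 0.221) and also when WT replicate 1 (adjusted p = 0.0826) or RXRKO replicate 2 (0.0506) was left out. Kmt2d, one of the pair of enhancer H3K4 methyltransferases, varied widely between libraries, from 66.4, 90.8 and 111 CPM in WT to 101, 118 and 134 CPM in RXRKO (log2 fold change 0.39, adjusted p = 0.131). It passed without WT replicate 3 (adjusted p = 0.024). The other of that pair, Kmt2c, had a log2 fold change of 0.26 that became -0.03 with the length offset. Kmt2b had one of 0.24, Setd1b one of 0.27 and Kmt2e one of 0.15. Without WT replicate 3 the adjusted p was 0.0159 for Kmt2b, 0.0474 for Kmt2c and 0.023 for Setd1b. Setd1a was the exception in sign (-0.18), and 51.8% of its exonic bases are shared with Gm49388 on the same strand, so its count is uncertain.

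The exonic lengths of this family have a median of 12.1 kb, and 6 of its 7 genes are in the longest of the 5 bins. The same holds for Setd2, the enzyme that trimethylates H3K36, and its relative Setd5, with log2 fold changes of 0.21 and 0.20 that did not pass and became 0.07 and -0.07 with the length offset. Without WT replicate 3 both passed (adjusted p = 0.0306 and 0.0278). Among the 5 H3K9 methyltransferase genes none passed. Setdb1, which silences retroelements, was higher in every RXRKO library, at 75.2, 77.6 and 74.2 CPM against 65.3, 66.4 and 69.9 CPM (log2 fold change 0.17, adjusted p = 0.168). Setdb2 had a log2 fold change of 0.11 and Ehmt1, the partner of G9a, one of 0.14, with overlapping genotypes. Suv39h1, the X-linked enzyme of H3K9 trimethylation at heterochromatin, pointed the other way at 30.3, 24 and 29.7 CPM in WT and 20.9, 25.1 and 18.1 CPM in RXRKO (log2 fold change -0.39, adjusted p = 0.0651). RXRKO replicate 2 overlapped WT, and without it Suv39h1 passed (adjusted p = 0.0242), as it did without WT replicate 2 (0.0341). Of its exonic bases, 14.6% overlap Gm14820 on the other strand.

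Polycomb repressive complex 2 methylates H3K27, and its core consists of EED, SUZ12 and either EZH2, common in dividing cells, or EZH1, common in resting ones. Ezh2 (chr6:47530139-47595341) was at 53.1, 55.2 and 49.96 CPM in WT and at 34.0, 38.8 and 37.3 CPM in RXRKO. Every RXRKO library was below every WT library, and the gene fell to 0.697 of its WT level (log2 fold change -0.52, SE 0.0937, adjusted p = 0.00192). The call held under all 19 alternative settings, where the log2 fold change lay between -0.58 and -0.47. Ezh1 showed no such fall, with 56.96, 51.5 and 62.0 CPM in WT and 62.4, 64.4 and 58.0 CPM in RXRKO (log2 fold change 0.11, SE 0.0946, adjusted p = 0.445). The difference between the changes of Ezh1 and Ezh2 was not tested. Eed was at 63.2, 55.7 and 51.1 CPM in WT and 44.1, 46.1 and 47.9 CPM in RXRKO, lower in every RXRKO library but just short of the threshold (log2 fold change -0.30, SE 0.0982, adjusted p = 0.0512). Without WT replicate 3 it passed (adjusted p = 0.0196). Suz12 had a log2 fold change of -0.11 with overlapping genotypes. Exons of other genes on the opposite strand cover 2.61% of the exonic bases of Ezh2 and 6.82% of those of Eed.

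The fall of Ezh2 stood beside a wide fall of cell cycle genes. Of all tested genes 9.61% fell and 9.77% rose. Of 37 cell cycle genes, listed with earlier results of these data known, 34 fell and 0 rose (median log2 fold change -0.68). Their summed level was 3953 to 4187 CPM in WT and 2677 to 2950 CPM in RXRKO, and its part in the values of Ezh2, Eed, Suv39h1 and the maintenance methylation gene Uhrf1 was not tested. In such bulk libraries, fewer cells with the transcript and less of it per cell cannot be told apart. Dnmt1, whose product works at the replication fork, had a log2 fold change of 0.03. The start of Ezh2 is shown because it holds a word bound by E2F factors, which act at genes of the cell cycle. The 30 bases on the minus strand (chr6:47595009-47595038, GRCm38.p6) carry the word, in capitals, from base 4 after the RefSeq start, which lies 311 bases inside the gene as GENCODE draws it.
Ezh2: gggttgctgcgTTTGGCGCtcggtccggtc
A match describes the letters of this window and is not a measured binding site. In the cell cycle list E2f1 did not pass (log2 fold change -0.10, adjusted p = 0.587), and the part of E2F factors was not tested.

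The demethylase genes held 5 of the 9 genes that rose, out of 12, and 10 of the 12 had a positive sign (median log2 fold change 0.29). Of all tested genes 9.77% rose, and of those in the longest bin, which held 7 of the 12 demethylase genes, 19.2% rose. Lengths were not matched inside that bin. With the length offset 4 of the 12 rose and their median was 0.17, or 0.15 with GC content added. By substrate, the H3K4 demethylases gave 1 riser of 3. Kdm5b (chr1:134560171-134635285), which removes H3K4 di- and trimethylation, was at 19.6, 22.04 and 23.4 CPM in WT and at 31.9, 32.6 and 31.8 CPM in RXRKO. It rose 1.48-fold with well separated genotypes (log2 fold change 0.56, SE 0.105, adjusted p = 0.00247), and the log2 value was 0.32 with the length offset (adjusted p = 0.0405). Its relative Kdm5a was at 67.7, 70.3 and 56.2 CPM against 62.9, 67.0 and 70.6 CPM (log2 fold change 0.05, SE 0.1), and became -0.16 with the length offset. Kdm1a, the oxidase LSD1, had a log2 fold change of -0.04 (SE 0.0842).

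Kdm2a and Kdm2b encode H3K36 demethylases that bind unmethylated CG dinucleotides, the second also bringing a Polycomb repressive complex 1 to them. Kdm2b (chr5:122870665-122989823) was at 30.6, 27.7 and 38.1 CPM in WT and at 44.0, 46.0 and 47.6 CPM in RXRKO. It rose 1.42-fold, with the highest WT library still below all of RXRKO (log2 fold change 0.50, SE 0.117, adjusted p = 0.00952). With the length offset the log2 value was 0.36 (adjusted p = 0.0309), and without WT replicate 1 the call was lost (adjusted p = 0.0611). Of its exonic bases, 5.77% overlap Rnf34 on the other strand. Kdm2a had 108, 126 and 112 CPM in WT and 112, 109 and 121 CPM in RXRKO, a log2 fold change of -0.01 that became -0.23 with the length offset without passing (adjusted p = 0.117).

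All 6 genes for H3K9 demethylases had positive log2 fold changes, and 3 rose. Kdm7a (chr6:39136623-39206789), whose product removes H3K9 and H3K27 dimethylation, had the smallest adjusted p of the 57. It was at 50.4, 52.0 and 54.3 CPM in WT and at 70.6, 77.1 and 74.5 CPM in RXRKO, with little spread within each genotype and a wide gap between them. The gene rose 1.42-fold (log2 fold change 0.50, SE 0.085, adjusted p = 0.00127) and by a log2 value of 0.37 with the length offset (adjusted p = 0.00588). Under the 19 alternative settings its log2 fold change lay between 0.27 and 0.54. Kdm4b (chr17:56326062-56402870), a demethylase of H3K9 trimethylation, was at 20.4, 20.7 and 22.1 CPM in WT and at 27.5, 26.5 and 31.5 CPM in RXRKO. It rose 1.35-fold (log2 fold change 0.43, SE 0.11, adjusted p = 0.0162), without overlap. With 4.90 kb of exons Kdm4b was the shortest of the genes that rose, and the length offset left its log2 value at 0.42, although the call was lost without WT replicate 1 (adjusted p = 0.076). With GC content added to the offset the log2 value of Kdm4b was 0.33 (adjusted p = 0.038). Kdm3b, which removes mono- and dimethylation of H3K9, was at 87.5, 87.7 and 107 CPM in WT and at 119, 117 and 123 CPM in RXRKO. It rose 1.27-fold without overlap (log2 fold change 0.35, SE 0.0929, adjusted p = 0.0205), but this call was among the least steady. It was lost with the length offset (0.14, adjusted p = 0.27) and without WT replicate 1 (0.106), WT replicate 2 (0.0692) or RXRKO replicate 1 (0.0729). Moreover, 24.6% of the exonic bases of Kdm3b overlap Gm26538 on the other strand. The genes that did not pass were Kdm4a, given above, which passed without WT replicate 2 (adjusted p = 0.0418), Kdm4c (0.12) and Kdm3a (0.12). Kdm6b, the H3K27 demethylase JMJD3 that is known to be induced in activated macrophages, was low, at 3.22, 4.04 and 5.49 CPM in WT and 6.40, 6.35 and 4.56 CPM in RXRKO (log2 fold change 0.41, SE 0.226, adjusted p = 0.235).

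No acetyltransferase gene of the 7 passed. Kat2a and Kat2b encode GCN5 and PCAF, alternative catalytic subunits of the SAGA coactivator, and their signs differed. Kat2b was at 43.4, 36.7 and 43.6 CPM in WT and 51.5, 53.6 and 44.5 CPM in RXRKO (log2 fold change 0.27, adjusted p = 0.0941), and Kat2a had a log2 fold change of -0.19 (adjusted p = 0.222). The difference between the pair was not tested. In the MYST family, Kat6a and Kat6b, which encode MOZ and MORF, were higher in every RXRKO library, by log2 values of 0.19 (adjusted p = 0.115) and 0.41 (adjusted p = 0.0568), which became 0.08 and 0.16 with the length offset. Without RXRKO replicate 3 both Kat2b (adjusted p = 0.0373) and Kat6b (0.0272) passed. Kat8, the H4 acetyltransferase MOF and the second shortest of the 57 genes, was lower in every RXRKO library, at 12.6, 12.03 and 10.3 CPM against 13.5, 16.2 and 14.1 CPM (log2 fold change -0.32, adjusted p = 0.117). Kat5, the TIP60 enzyme, had a log2 fold change of 0.11, with 12.1% of its exonic bases shared with Rnaseh2c on the other strand.

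Of the DNA methylation genes, Dnmt3a (chr12:3806007-3914443), which sets new methylation, rose and the other 3 did not pass. Dnmt3a was at 203, 227 and 220 CPM in WT and at 257, 252 and 282 CPM in RXRKO, 1.22-fold higher without overlap (log2 fold change 0.28, SE 0.0817, adjusted p = 0.0284). Its exons span 16.6 kb, and with the length offset the log2 value was 0.03 (adjusted p = 0.832). The call was also lost without WT replicate 1 (adjusted p = 0.136), RXRKO replicate 1 (0.0854), RXRKO replicate 2 (0.0541) or RXRKO replicate 3 (0.0804). Dnmt1 was at 226, 226 and 245 CPM in WT and at 241, 254 and 217 CPM in RXRKO, with overlapping genotypes (log2 fold change 0.03, SE 0.0841, adjusted p = 0.841). Tet3 gave log2 values close to those of Dnmt3a, at 92.1, 112 and 115 CPM in WT and 124, 133 and 132 CPM in RXRKO (log2 fold change 0.29, SE 0.094, adjusted p = 0.0503), and 0.04 with the length offset. It passed without WT replicate 3 (adjusted p = 0.031). Tet2, the TET gene often mutated in clonal haematopoiesis, was at 33.5, 30.1 and 41.5 CPM against 37.7, 37.9 and 30.2 CPM (log2 fold change -0.004, SE 0.132), and at -0.25 with the length offset (adjusted p = 0.159).

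**Figure D3:**
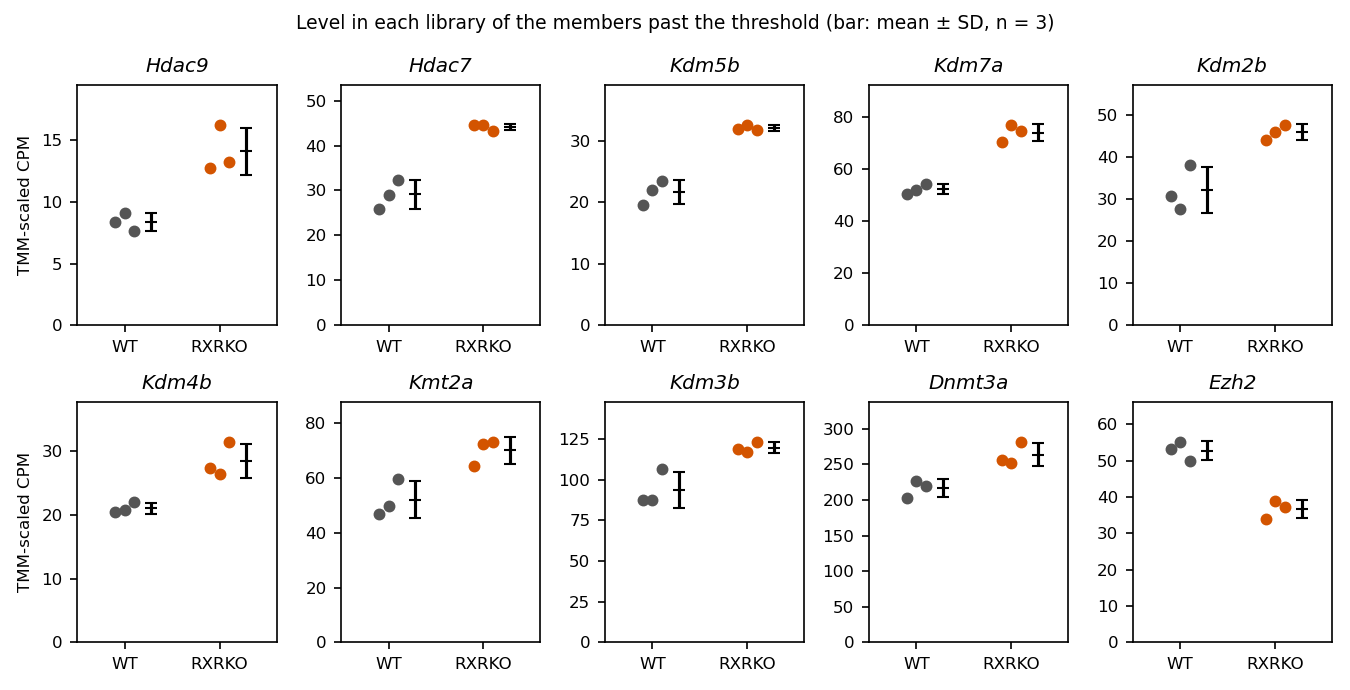
Level in each library of the 10 genes that passed the test, in TMM-scaled CPM from 0, with grey points for WT, orange points for RXRKO and bars for the mean ± SD of 3 libraries. In 9 panels every orange point is above every grey one, and for Ezh2 every orange point is below, at 34.0 to 38.8 against 49.96 to 55.2.

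The dependence on transcript length was measured over all tested genes, ordered by exonic length and split into 5 bins of equal size. The median log2 fold change of a bin went from -0.15 in the shortest bin (57 to 2399 bases) through -0.07, -0.003 and 0.04 to 0.13 in the longest (7464 to 123179 bases), a span of 0.28. The share of genes that rose went from 4.16% to 19.2% and the share that fell from 15.4% to 5.21%. None of the 57 genes was in the shortest bin, and in order of length the others held 6, 12, 15 and 24. Of the 9 genes that rose, 7 were in the longest bin, where 29.2% of the 24 rose beside 19.2% of all genes of that bin. The exceptions were Kdm4b in bin 3 and Hdac7 in bin 4, which also held Ezh2. Within the longest bin the median of the 24 genes was 0.27, beside 0.13 for all genes there, and 0.06 with the length offset. That bin runs from 7464 to 123179 bases. In neither comparison with it were the 24 genes matched to the others on length inside the bin.

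The trend was not the same in all libraries of a genotype. Expressed against the mean of the 6 libraries, the median log2 ratio of the longest bin minus that of the shortest was -0.20 and -0.22 in WT replicates 1 and 2 but -0.004 in WT replicate 3, and 0.12, 0.20 and 0.08 in the RXRKO libraries. Within the longest bin, the median log2 ratio of all its 2401 genes was -0.09, -0.10 and 0.002 in WT and 0.06, 0.10 and 0.04 in RXRKO. That of the 24 genes of the set in this bin was -0.27, -0.18 and -0.007 in WT and 0.11, 0.18 and 0.15 in RXRKO. These values were farther from 0 than the whole bin in each of the 6 libraries, again without matching on length inside the bin. In the trend over all genes WT replicate 3 lay between the other WT libraries and the RXRKO libraries, and without it the span over all genes was 0.37. Depth also differed between the genotypes, and after thinning all libraries to the smallest total, 9 of the 57 rose and 1 fell, and these were the same 9 and the same 1, beside 9.57% higher and 8.93% lower of all 11168 genes tested. The source of the length trend was not tested.

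A list of further genes for writers, erasers and DNA methylation matched 60 genes, of which 55 were tested. There, 7 rose, 6 fell and 42 missed the threshold, and the median log2 fold change was 0.06, beside 9.77% higher and 9.61% lower of all tested genes. After the length offset 5 rose and 6 fell, beside 8.32% and 9.05% of all tested genes. The shares of all tested genes also moved when a library was left out, and are given in brackets. Without WT replicate 1 the numbers were 2 and 2 (5.4% and 5.01%), and without WT replicate 3 they were 10 and 5 (10.4% and 10.8%). They were 4 and 3 without WT replicate 2 (7.45% and 7.58%) and 3 and 2 without RXRKO replicate 1 (5.76% and 5.67%). Without RXRKO replicate 2 the number that rose was 3 (6.57%). The 3 methyltransferase genes with the smallest adjusted p that rose were Dot1l, the H3K79 methyltransferase (0.55, adjusted p = 0.00202), Setd7 (0.45, 0.00748) and Nsd1, which methylates H3K36 (0.38, 0.00969). Nsd1 did not pass with the length offset (0.12, adjusted p = 0.332), and Nsd2 fell (-0.32, adjusted p = 0.019). Prmt2 rose (0.29, adjusted p = 0.0312) as the 1 riser among 7 tested arginine methyltransferase genes. Of the genes that work with Dnmt1, Uhrf1 fell (-0.34, adjusted p = 0.0371), and so did its relative Uhrf2 (-0.30, adjusted p = 0.0156). The cytoplasmic acetyltransferase gene Hat1 also fell (-0.32, adjusted p = 0.0472), but did not pass with the length offset (-0.24, adjusted p = 0.108).

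The demethylases of that list that changed were all on the sex chromosomes. The X-linked Kdm5c was at 84.6, 80.5 and 87.9 CPM in WT and 107, 106 and 103 CPM in RXRKO (log2 fold change 0.32, adjusted p = 0.014), and the X-linked Kdm6a at 22.2, 24.9 and 30.7 against 36.2, 39.6 and 33.2 CPM (0.48, adjusted p = 0.0197). Their Y-linked relatives were lower in every RXRKO library. Kdm5d was at 22.7, 25.95 and 28.2 against 14.1, 16.2 and 14.0 CPM (log2 fold change -0.80, adjusted p = 0.000602), and Uty at 26.98, 20.2 and 26.1 against 13.8, 17.2 and 12.7 CPM (-0.75, adjusted p = 0.00329). These values moved with those of Xist and Ddx3y given at the start. Genotype and the sex of the animals cannot be told apart here for any gene, sex-linked or not. Of the 57 genes, Hdac6, Hdac8 and Suv39h1 are X-linked and 0 of these passed.

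Of 95 genes for partner subunits of the complexes in which these enzymes work, 94 were tested. Of these, 6 rose, 5 fell and 83 missed the threshold, and the median log2 fold change was -0.01, beside 9.77% higher and 9.61% lower of all tested genes. After the length offset 3 rose and 9 fell, beside 8.32% and 9.05% of all tested genes. With 1 library left out, the shares of all tested genes are again in brackets. Without WT replicate 1 the numbers were 2 and 2 (5.4% and 5.01%), and without RXRKO replicate 1 they were 3 and 2 (5.76% and 5.67%). Without RXRKO replicate 2 both were 3 (6.57% and 6.78%), and 3 rose without WT replicate 2 (7.45%). The largest change was in Polycomb accessory subunits that steer complex 2 to its targets. Jarid2 was at 24.7, 28.3 and 28.1 CPM in WT and at 53.1, 52.0 and 52.6 CPM in RXRKO, and rose (log2 fold change 0.96, SE 0.0948, adjusted p = 1.95e-05). Phf1 rose from 19.6, 23.5 and 21.8 CPM to 30.8, 30.7 and 33.8 CPM (0.56, adjusted p = 0.00304), whereas Aebp2 fell (-0.28, adjusted p = 0.0312). Ezh2 was thus lower while Jarid2 and Phf1, whose products bind the same core, were higher, and Jarid2 stayed at 0.84 with the length offset. Of the deacetylase complexes, the X-linked Rbbp7, a histone-binding subunit shared with the Polycomb complex, fell (-0.43, adjusted p = 0.00258), as did Mta3 of NuRD (-0.41, adjusted p = 0.0179). In the group of SAGA, TIP60 and MYST complexes, Kansl3 (0.42, adjusted p = 0.0104), Trrap (0.39, 0.0432) and Ep400 (0.31, 0.0438) rose and Ing4 fell (-0.46, 0.0018). Trrap and Ep400 did not pass with the length offset. Psip1, which tethers the MLL1 complex, fell (-0.38, adjusted p = 0.0414).

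Promoter windows of 250 bases before to 50 after the RefSeq start were held for 45 of the 57 genes and for 9265 tested genes. The hexamer recognised by nuclear receptors that pair with RXR, AGGTCA on either strand, was in 5 of the 45 (Ehmt1, Kdm1a, Kdm4c, Kat7 and Kat8), 11.1% beside 11.8% of all windows. None of those 5 genes passed the test between genotypes. A direct repeat of the hexamer with a gap of 1 to 5 bases was in 0 of the 45 and in 0.0432% of all windows. One of the E2F words TTTCCCGC, TTTGGCGC, TTTCGCGC and TTTGCCGC, on either strand, was in 3 (Ezh2, Suz12 and Kat2a), 6.67% beside 4.36%. Of these 3 genes, Ezh2 passed the test between genotypes, and Suz12 and Kat2a did not. The median number of CG dinucleotides before the start was 17 in the 45 and 16 in all windows. Exact letters were searched in these windows alone, so the absence of a match says only that the letters are not there.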

How the data were processed

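Libraries of 3 WT and 3 RXRKO macrophage cultures were made from 100 ng of RNA and read single-end (kit of 75 cycles), per the labels. TopHat2 2.0.7, DESeq and the build mm10, the same as GRCm38, are named in the submitters' processing notes. For the counting program, annotation release and strand setting, the sources used here give nothing, so genes with overlapping exons are uncertain. The authors deposited raw counts per Ensembl gene, which were tested. The authors also deposited log2 values, for which every count of a library was first multiplied by 1 constant, and these served as an alternative.

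The test was the robust quasi-likelihood F test of edgeR 4.0.16 in R 4.3.3, on genes kept by filterByExpr (minimum count 10, minimum total 15), with TMM factors, genotype as the one term and Benjamini-Hochberg adjustment over 12011 genes (threshold 0.05). The SE, which restates that test, was obtained as the size of the log2 fold change over the root of F. Exonic length and GC content came from GENCODE M21 by Ensembl identifier. For the length offset, each library's log2 ratio to the mean library was smoothed on log2 length with mgcv 1.9.3 (basis of 10) and entered as an offset. Promoters are from RefSeq on GRCm38.p6, each gene taking the entry nearest to its GENCODE start. The scripts were tested on simulated data.

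Alternatives were RLE and upper-quartile factors, no filter, a minimum CPM of 1 in 3 libraries, DESeq2 1.42.0, limma-voom and limma 3.58.1, the replicate number as a block, the offsets, thinning and leaving out each library. Leaving out each library in the fit with the length offset was added after the data were seen. The 57 genes and all other lists were chosen with earlier results of these data known. All 57 were named. Values in every library were given for genes that passed, for the most abundant gene of each class per kb and for genes whose call changed with the length offset, as well as for some chosen after their values were seen. Of each other list, up to 3 genes that rose and 3 that fell with the smallest adjusted p were named.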

Additional observations from a re-analysis of the deposited data

How the results depend on the processing

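Among the 10 genes that passed, Hdac7, Kdm7a and Ezh2 kept their call and direction under all 19 alternatives, Hdac9 and Kdm5b under 18, Kdm2b under 17, Kdm4b under 16, Kmt2a under 13, Kdm3b under 11 and Dnmt3a under 10. The replicate numbers were not taken to pair the libraries, since the deviations of same-numbered libraries from their group means correlated at 0.0528, -0.275 and -0.259. With the replicate number as a block, 1375 genes passed in place of 2327, 7 of the 57 rose (6 of them among the 9) and 1 fell, Kdm3b (adjusted p = 0.0571), Kdm4b (0.0515) and Dnmt3a (0.106) did not pass, and no library correlated best with the one of its own number. Under the block 3 of the other writers and erasers rose and 2 fell, and 3 partner subunits rose and 2 fell. Of all tested genes 5.9% rose and 5.54% fell under the block. With the block and the length and GC offsets together 1108 genes passed, 2 of the 57 rose (Hdac7 and Kdm7a; Hdac9 had 0.0583, Kdm2b 0.0969, Kdm4b 0.119 and Kdm5b 0.139), 0 other writers rose, and 2 partners rose and 2 fell. Of all tested genes 4.45% rose and 4.77% fell with the block and these offsets. RLE factors or no filter left 2 of the 57 that fell. Without a filter the median log2 fold change of all genes was 0.12 over 27301 genes, and that of the 57 was 0.14.

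With the length offset 3 partners rose and 9 fell, as with the longest transcript as length, where 3 other writers rose. With the length and GC offsets 3 partners rose and 8 fell. Of all tested genes 8.32%, 7.84% and 8.43% rose in these fits in turn, and 9.05%, 8.49% and 9.21% fell. Small log2 fold changes turned sign. With the length offset this held for Hdac5 (-0.0041), Kmt2c (-0.0317), Setd5 (-0.0652), Kdm5a (-0.16) and Dnmt1 (-0.0468). With the longest transcript it held for Hdac5 (-0.0063), Kmt2c (-0.12), Kmt2d (-0.0483), Kmt2e (-0.0179), Kdm5a (-0.23), Kat6a (-0.0247) and Dnmt1 (-0.095). With the length and GC offsets it held for Hdac5 (-0.12), Sirt2 (-0.0113), Sirt7 (-0.0276), Kmt2c (-0.05), Kmt2d (-0.0026), Setd1b (-0.003), Setd5 (-0.0898), Kdm5a (-0.14), Dnmt1 (-0.0873), Dnmt3a (-0.0021) and Tet3 (-0.0113). With the block added to these it held for Hdac5 (-0.12), Sirt2 (-0.0164), Sirt7 (-0.0285), Kmt2c (-0.0517), Setd1b (-0.0014), Setd5 (-0.0849), Kdm5a (-0.13), Dnmt1 (-0.0908), Dnmt3a (-0.0033) and Tet3 (-0.0107). Tet2 turned with the authors' log2 values (0.0145), with no filter (0.005) and with the block (0.0049), and Kdm2a after thinning (0.0139).

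With 1 library left out, 1286 to 2607 genes passed, 4 to 16 of the 57 rose and 1 to 2 fell; with the length offset 2 to 5 rose and 1 to 2 fell. Of the other writers 2 to 10 rose and 2 to 5 fell, and of the partners 2 to 8 rose and 2 to 7 fell. Of all tested genes 5.4% to 10.4% rose and 5.01% to 10.8% fell in the fits without the offset. The log2 fold change ran from -0.0232 to 0.0926 for Dnmt1, -0.0213 to 0.27 for Kat5, -0.24 to 0.0192 for Kat7, -0.061 to 0.0514 for Kdm2a, -0.0487 to 0.11 for Kdm5a, -0.0231 to 0.13 for Sirt2, -0.0167 to 0.29 for Sirt6, -0.0387 to 0.10 for Sirt7 and -0.0984 to 0.14 for Tet2. Where an arm kept 2 libraries, the fit was the same as the main one, with dispersions estimated over both arms. The cause was not tested for any of these shifts, beyond the smaller number of libraries. Depth limited Hdac11 most: with 5 to 38 counts in a library and an SE of 0.401, a change of the size seen in Hdac7 was not detectable.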
